A study of Rattus norvegicus with 4 samples.

Results

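The chaperones of the cytosol and the mitochondria, with the heat shock factors that control them, were described in cultured rat cells. The study prepared these as primary Sertoli cells, which support developing germ cells in the seminiferous tubule. The genes were chosen by name as 49 symbols in 10 classes, and 45 of them were found among the 13114 gene names of the mRNA table. Earlier results of these data were known when this and the other lists were chosen. Counts set against all genes below therefore describe the lists and are no independent test. Hspa8, Hspa1b, Hspe1 and Bag4 were not analysed here. Expression is given as FPKM, fragments scaled to transcript length and library size, summed over the transcripts of a gene. A gene was tested when its mean over the 4 libraries was at least 1 FPKM, which 42 members reached, while Hspa12a, Dnajb5 and Hspb7 did not.

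The data were 2 control and 2 treated libraries of total RNA depleted of ribosomal RNA. The cells came from testes of Sprague-Dawley rats of 5 to 10 days, were cultured with fetal bovine serum and were passaged before use. Treated cells received 0.5 mM 4-nonylphenol (4-NP), an alkylphenol with estrogenic activity, for 24 h. Control cells received 0 mM for the same 24 h, and the sources used here do not give the solvent. No transgene or mutation is named for either group. Whether the libraries of a group stem from different cultures is not stated, and the p-values therefore cover only the spread among these 4 samples, which may be technical.

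The libraries held 96.6 to 119 M mapped reads. The Sertoli cell markers Sox9, Gata4 and Fshr were under 1 FPKM in all 4 libraries. The sum of 10 Sertoli markers went from 108 and 100.1 FPKM to 19.0 and 17.7 FPKM, and all 6 that were tested fell. Clu alone held 70.5 and 61.8 FPKM of the control sums. The 9 smooth muscle markers summed to 7904 and 7983 FPKM in controls and to 663 and 652 FPKM in treated cells, with 8 lower and 1 not past the threshold. In controls this was 2.98% and 2.90% of all listed FPKM, against 0.0409% and 0.0363% for the Sertoli markers. The name Sertoli cells is thus the study's, and the share of Sertoli cells in the cultures was not tested. The summed germ cell, macrophage and endothelial markers were each at most 21.9 FPKM in every library, and their 4, 2 and 2 tested members fell. Among untested macrophage markers, Cd68 was higher in treated cells (0.0888 and 0.301 FPKM in controls against 0.552 and 0.812 FPKM). Csf1r, Adgre1 and Cd163 were lower. Of the Leydig cell markers only Star could be tested, and it rose from 309.8 and 305 FPKM to 813 and 788 FPKM. Below the level for testing, Cyp11a1 was at 1.15 and 1.05 FPKM in controls against 0.0883 and 0.142 FPKM in treated cells, and Cyp17a1 was listed at 0 in all libraries except control replicate 1. The part of these shifts in the results below was not tested. In bulk RNA, fewer cells of a type and less RNA per cell cannot be told apart.

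Chaperones hold unfolded proteins and release them to fold. HSP70 proteins bind short exposed stretches, J proteins deliver the client and start ATP hydrolysis, and nucleotide exchange factors (the HSP110 and BAG families) release it. HSP90 with its cochaperones matures kinases and steroid receptors, the ring-shaped TRiC/CCT complex folds actin and tubulin, and small heat shock proteins hold aggregating clients without ATP. Mitochondria carry their own HSP70, HSP60 and HSP90. Heat shock factor 1 binds heat shock elements, inverted repeats of GAA, and drives the classical heat shock genes. In the testis, Hspa2 and Hspa4l are known as chaperones of germ cells.

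Of the 42 tested members, 24 were higher and 6 were lower in 4-NP-treated cells (limma, with p adjusted by Benjamini-Hochberg over 8012 genes and a threshold of 0.05). This was 57.1% higher and 14.3% lower, against 24.7% higher and 23.1% lower over all genes tested. At a mean of at least 5 FPKM, 24 of 37 members were higher and 6 lower, against 1704 and 1158 of 4918 genes. More expressed genes were thus more often called higher, and the shares of all genes given below do not account for level. The median log2 change of the tested members was 0.49, and that of all tested genes was 0.05. The treated and control values did not overlap for 40 of the 42, with 30 higher and 10 lower in treated cells, where 76.4% of all genes did not overlap (40.1% higher, 36.3% lower). At the study's cutoff, an unadjusted p below 0.05 with a log2 change larger than 1, 9 members were higher and 2 lower, against 11.4% and 15.2% of all genes. The most raised members were Hspb8 and Hspa4l, and the most lowered were Cryab and Hspa2. All 3 HSP110 genes, all 7 listed TRiC/CCT subunits and all 3 measured mitochondrial chaperones rose. Of these, Tcp1, Cct5 and Cct8 of TRiC/CCT and the mitochondrial Trap1 did not pass when certain libraries were left out, as given for each below. Together the 45 members summed to 2495 and 2675 FPKM in controls and to 3713 and 3958 FPKM in treated cells, or 0.942% and 0.970% of all listed FPKM against 1.30% and 1.38%. Without treated replicate 2 the test called 17 of the 30 members.

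**Figure D1:**
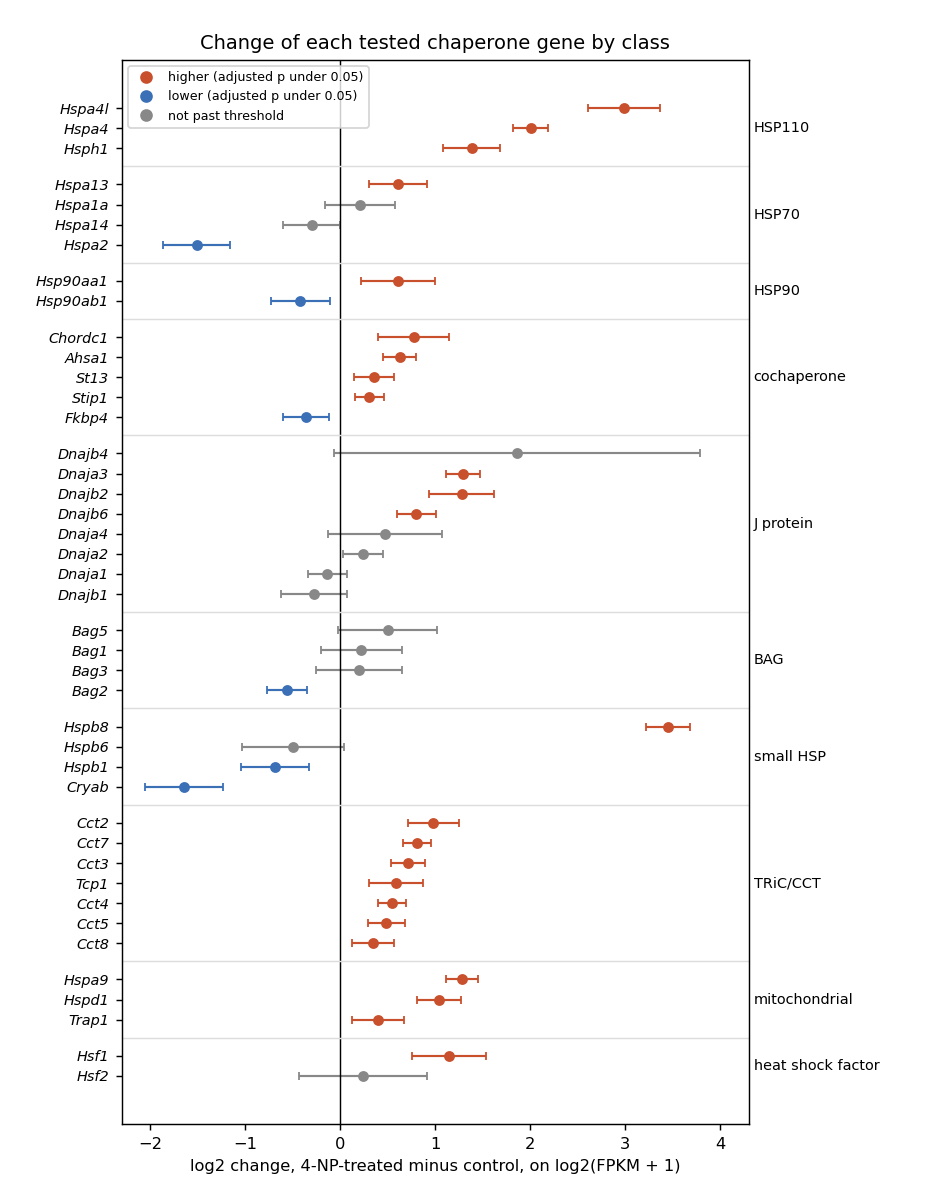
Log2 change (treated minus control, on log2(FPKM + 1), horizontal axis) of the 42 tested chaperone genes, grouped by class, with 95% intervals from limma and colors for the outcome of the test. HSP110, TRiC/CCT and mitochondrial genes lie to the right of 0, while small heat shock proteins run from -1.64 for Cryab to 3.45 for Hspb8.

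Heat shock factors control many of the other members. Hsf1, the main activator of the heat shock response, was at 4.09 and 5.02 FPKM in controls against 11.2 and 11.3 FPKM in treated cells. Both treated values exceeded both controls, and Hsf1 rose by 1.15 ± 0.14 on the log2 scale (SE, adjusted p = 0.00668). Hsf2, a related factor active in development and in the testis, was at 3.10 and 4.88 FPKM in controls against 5.22 and 4.43 FPKM in treated cells, so its groups overlapped. It did not pass the test (log2 change 0.24, 95% interval -0.43 to 0.92), and without control replicate 1 the change was -0.016. mRNA levels do not measure the trimers of HSF1 that bind DNA.

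Sequence was examined because members with and without a rise could share heat shock elements. RefSeq promoter windows on GRCr8, from 250 bases before to 50 bases after the annotated start, were matched by symbol for 40 of the 49 members. A minimal element of 2 inverted units, GAANNTTC or TTCNNGAA (both read the same on either strand, and neighbouring matches may overlap), stood in 19 of the 40 windows, or 47.5%, and in 15.9% of all 33469 windows. It stood in 10 of 21 windows of members that rose, in 3 of 5 of those that fell, in 4 of 10 that did not pass, in 0 of 2 that were not tested and in 2 of 2 without values (Hspa8 and Hspe1). Hspd1 and Hspe1 lie head to head, and their windows overlap and share the same 3 matches. Of 40 windows 6 held at least 3 matches, against 0.368% of all windows. The ER stress element (0.0657% of all windows) and the composite site of ATF4 and C/EBP, TGATGNAAT (1.09% of all windows), were each found in 0 of the 40 member windows on both strands. Both are so rare that 40 windows are too few to set this count apart from these shares. A match describes letters and is not a measured binding site.

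Stretches of 30 bases from 6 of these windows are shown, with 1 match to GAANNTTC in capitals. This minimal element precedes 3 genes that rose and 3 that did not, but the windows differ in their number of matches. Hsph1 and Hspd1 hold 3 each, Dnajb1 and Hspb1 2 each, and Hspb8 and Bag3 1 each. In Hsph1 and Hspd1, matches to TTCNNGAA overlap the one in capitals. Hspb8 (chr12:45837274-45837303, plus strand), Hsph1 (chr12:10427326-10427355, plus strand) and Hspd1 (chr9:64084256-64084285, minus strand) rose. Dnajb1 (chr19:41431134-41431163, minus strand), Bag3 (chr1:192533317-192533346, plus strand) and Hspb1 (chr12:26432412-26432441, minus strand) did not, and Hspb1 was called lower. The matches begin at -23 from the annotated start in Hspb8, -31 in Hsph1, -237 in Hspd1, -11 in Dnajb1, -132 in Bag3 and -129 in Hspb1.
Hspb8: agaagccaggaGAAGTTTCtaggcgcgtga
Hsph1: cgcagattctgGAAAGTTCtcctcagtagg
Hspd1: ggggccttccgGAAGGTTCtagaaccgagc
Dnajb1: cgggaggggcgGAAGGTTCtggagggctgg
Bag3: ggatgggaccaGAAGTTTCtagccggccag
Hspb1: cttcaactagaGAAGTTTCcagatgggggc

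Hspa1a, Dnajb1 and Bag3, 3 stress-inducible genes that did not pass, were singled out after their values were seen. The other members described below as inducible, Hsph1, Hsp90aa1 and Chordc1, rose by 1.39, 0.61 and 0.77 on the log2 scale. Of these, Hsp90aa1 and Chordc1 did not pass when certain libraries were left out, as given below. Hspa1a, the stress-inducible HSP70 of the cytosol, was at 28.0 and 35.0 FPKM in controls against 36.2 and 36.6 FPKM in treated cells. Its log2 change of 0.21 had a 95% interval from -0.16 to 0.58 and did not pass the test (adjusted p = 0.258). Hspa1a has a near-identical copy, Hspa1b, so reads may have been shared and its level is uncertain. Dnajb1, the inducible J protein that works with it, was at 14.0 and 15.6 FPKM in controls against 11.2 and 13.0 FPKM in treated cells, with an interval from -0.62 to 0.07 around a log2 change of -0.27. For Bag3, an exchange factor induced by protein stress, the values were 2.79 and 3.05 FPKM against 3.86 and 3.15 FPKM, with an interval from -0.26 to 0.65. The upper bounds of these 3 intervals lie under 1. They are on log2(FPKM + 1), which understates changes of low genes such as Bag3, so a doubling can lie under 1 there. The windows of Dnajb1 and Bag3 hold the element. That of Hspa1a holds no exact match, which does not show that its promoter lacks heat shock elements. Hsph1, Hspd1 and Hspb8 rose by more than 1 on the log2 scale. Their windows hold 3, 3 and 1 matches, against 2 in Dnajb1 and 1 in Bag3.

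**Figure D2:**
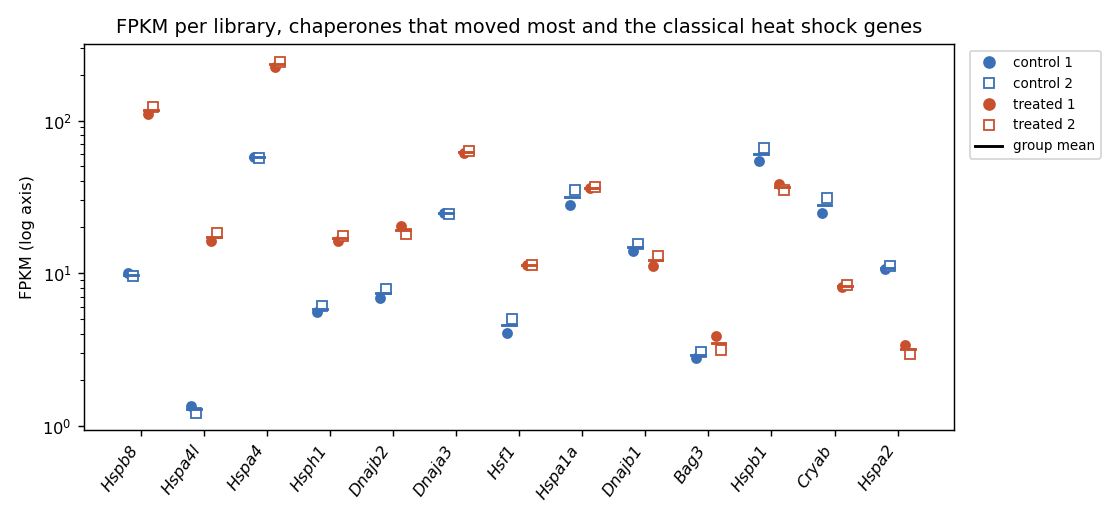
FPKM on a log axis in each of the 4 libraries for 13 chaperone genes, with control values in blue, treated values in orange, replicate 1 as filled circles, replicate 2 as open squares and lines for group means. Hspb8 goes from 9.98 and 9.56 to 111 and 122 FPKM, while Hspa1a, Dnajb1 and Bag3 stay close to their controls.

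The HSP110 genes, exchange factors that also hold denatured protein, rose most as a class. Hspa4, the constitutive member, was at 58.0 and 57.2 FPKM in controls against 225 and 243 FPKM in treated cells, a 4.06-fold difference (log2 change 2.00 ± 0.06, adjusted p = 0.000842). Hspa4l, its testis-enriched relative, was near 1 FPKM in controls (1.36 and 1.23) and at 16.1 and 18.2 FPKM in treated cells. That is 13.3-fold, and 99.4% of tested genes had a log2 change no higher. Hsph1, the heat-inducible member, went from 5.61 and 6.09 FPKM to 16.3 and 17.5 FPKM (log2 change 1.39 ± 0.11, adjusted p = 0.00271). The 3 genes did not rise alike, since Hspa4l over Hspa4 was 0.0234 and 0.0214 in controls and 0.0717 and 0.0749 in treated libraries, and Hsph1 over Hspa4 went from 0.0967 and 0.106 down to 0.0723 and 0.0720. Each ratio gave p = 0.333 in a two-sided exact permutation test, the smallest that 2 against 2 libraries allow. The deposited coordinates, for which no build is named, place Hspa4 on chromosome 10 from 38601624 to 38642397 with 19 exons and Hspa4l on chromosome 2 from 127625683 to 127677503 with 20 exons.

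HSP70 genes were split. Hspa13, an atypical HSP70 of microsomes, went from 15.3 and 16.7 FPKM to 23.3 and 26.5 FPKM (log2 change 0.60 ± 0.11, adjusted p = 0.0169). It did not pass without control replicate 1 (adjusted p = 0.0761), control replicate 2 (0.0571) or treated replicate 2 (0.0726). Hspa2, the HSP70 of meiotic germ cells, was at 10.7 and 11.1 FPKM in controls against 3.37 and 2.97 FPKM in treated cells, and it fell by 1.51 on the log2 scale (adjusted p = 0.00314). Beside it, the 6 germ cell markers with values summed to 21.9 and 21.9 FPKM in controls and to 4.10 and 5.17 FPKM in treated cells, with 4 of 4 tested members lower, Ddx4 listed at 0 in both treated libraries and Sycp3 at 0 in all but control replicate 2. In the same libraries Hspa4l, also known as a chaperone of germ cells, went the other way and rose 13.3-fold. The part of germ cells in the changes of Hspa2 and Hspa4l was not tested. Hspa14, a ribosome-associated HSP70, was at 18.8 and 18.4 FPKM in controls against 16.0 and 13.9 FPKM in treated cells and did not pass (adjusted p = 0.0856). Hspa12a, a distant relative, stayed below 1.2 FPKM in every library and was not tested.

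Among J proteins 3 of 8 tested rose and 0 fell (limma, with 0 lower also at an unadjusted p under 0.05), against 24.7% higher and 23.1% lower over all genes. Dnaja3, the J protein of the mitochondrial matrix, went from 24.9 and 24.6 FPKM to 60.9 and 63.4 FPKM (log2 change 1.29 ± 0.06, adjusted p = 0.00137). Dnajb2, which passes ubiquitinated clients to the proteasome, went from 6.88 and 7.88 FPKM to 20.4 and 18.2 FPKM (log2 change 1.28 ± 0.12, adjusted p = 0.00411). Dnajb6, a suppressor of polyglutamine aggregation, went from 16.1 and 16.5 FPKM to 28.9 and 29.3 FPKM (log2 change 0.80 ± 0.07, adjusted p = 0.00370). The most abundant cytosolic J proteins moved little by comparison. Dnaja1, a main partner of cytosolic HSP70, was at 90.1 and 99.6 FPKM in controls against 86.2 and 86.3 FPKM in treated cells (95% interval -0.34 to 0.07). Dnaja2, its paralog, was at 54.6 and 54.8 FPKM in controls against 61.9 and 68.2 FPKM in treated cells (95% interval 0.03 to 0.45), and its adjusted p of 0.0644 missed the threshold. Dnajb4 was at 0.0277 and 1.07 FPKM in controls against 7.90 and 2.13 FPKM in treated cells, with a wide spread within each group, and did not pass (adjusted p = 0.0973). Dnaja4 had 1.69 to 3.47 FPKM and did not pass (adjusted p = 0.148), and Dnajb5 stayed under 0.05 FPKM.

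Dnajb2 was listed with 2 transcripts whose shares differed between the groups. ENSRNOT00000081958, with 10 exons, was at 5.44 and 5.95 FPKM in controls against 20.4 and 18.2 FPKM in treated cells. ENSRNOT00000026467, with 9 exons, was at 1.44 and 1.92 FPKM in controls against 0.0111 and 0.0459 FPKM in treated cells. The transcript with 9 exons thus held 20.9% and 24.4% of the Dnajb2 level in controls and 0.0542% and 0.252% in treated cells. Both start within the same region of chromosome 9 (82436458 and 82436516) and end at 82444668, so their spans overlap, and how reads were divided between them was not examined. The second transcript had a mean under 1 FPKM and was not tested.

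BAG proteins, exchange factors and scaffolds of HSP70, did not rise as the HSP110 genes did. Of 4 tested members 0 were higher and 1 was lower (limma, unadjusted p over 0.05 for the other 3). Over all genes 24.7% were higher and 23.1% lower, and 4 genes are too few to be set apart from these shares. The log2 changes of Bag1, Bag3 and Bag5 were positive. Bag2, an inhibitor of the ubiquitin ligase CHIP, went from 32.7 and 34.5 FPKM to 23.0 and 22.1 FPKM (log2 change -0.56 ± 0.07, adjusted p = 0.00868, and 0.0516 without treated replicate 2). Bag1, the most abundant of them, was at 47.4 and 58.9 FPKM in controls against 57.1 and 67.0 FPKM in treated cells, and these groups overlapped. Bag5 was at 6.44 and 7.06 FPKM in controls against 11.6 and 8.52 FPKM in treated cells (adjusted p = 0.0979).

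The cytosolic HSP90 genes moved in opposite directions. Hsp90ab1, the constitutive and more abundant gene, was at 396 and 447 FPKM in controls against 292 and 338 FPKM in treated cells (log2 change -0.42 ± 0.11, adjusted p = 0.0432). Hsp90aa1, the inducible gene, was at 71.4 and 84.9 FPKM in controls against 109 and 129.9 FPKM in treated cells (log2 change 0.61 ± 0.14, adjusted p = 0.0307). Neither call held when any library was left out, with adjusted p from 0.0716 to 0.147 for Hsp90ab1 and from 0.0562 to 0.118 for Hsp90aa1. The ratio within a library was steadier, with Hsp90aa1 over Hsp90ab1 at 0.180 and 0.190 in controls and at 0.374 and 0.385 in treated libraries (two-sided exact permutation p = 0.333, the smallest possible). Their summed level was 467 and 532 FPKM in controls and 402 and 467 FPKM in treated cells, and these groups overlapped.

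Cochaperones of HSP90 and HSP70 were mostly higher, with 4 of 5 up and 1 down, against 24.7% higher and 23.1% lower over all genes. Ahsa1, which stimulates the HSP90 ATPase, went from 55.9 and 57.5 FPKM to 85.9 and 90.2 FPKM (log2 change 0.63 ± 0.06, adjusted p = 0.00424), and this call held when each library was left out. Chordc1, an HSP90 partner that is itself stress-inducible, went from 16.0 and 18.2 FPKM to 27.3 and 32.5 FPKM, a 1.75-fold difference (adjusted p = 0.0150). Stip1, the adaptor between HSP70 and HSP90, went from 56.6 and 57.2 FPKM to 70.6 and 70.5 FPKM (1.24-fold). St13, which stabilizes HSP70 bound to its client, went from 72.1 and 79.9 FPKM to 97.3 and 98.0 FPKM (1.28-fold). Fkbp4, an immunophilin of steroid receptor complexes, was the exception and fell from 32.5 and 31.7 FPKM to 23.4 and 26.1 FPKM (log2 change -0.36 ± 0.09, adjusted p = 0.0344). Stip1 and Fkbp4 did not pass without any one library (adjusted p from 0.0620 to 0.0811 and from 0.0602 to 0.129). Chordc1 passed only without treated replicate 1 (0.0692 without control replicate 1, 0.0503 without control replicate 2, 0.0628 without treated replicate 2), and St13 only without control replicate 2 (0.0660, 0.105 and 0.112 without control replicate 1, treated replicate 1 and treated replicate 2).

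The 7 listed subunits of TRiC/CCT, a ring-shaped complex that folds actin and tubulin, all rose by 1.27- to 1.99-fold. Of these 7, Cct2 changed most, from 76.7 and 71.9 FPKM to 138 and 158 FPKM (log2 change 0.98 ± 0.09, adjusted p = 0.00421). Cct7 went from 92.1 and 89.5 FPKM to 161 and 159 FPKM (log2 change 0.81 ± 0.05, adjusted p = 0.00201), and Cct3 from 122 and 114 FPKM to 192 and 196 FPKM (log2 change 0.71). Cct4 was at 175 and 184 FPKM in controls against 260.3 and 264 FPKM in treated cells. Every treated value was above every control value of the same subunit. Tcp1, the alpha subunit, went from 131 and 148 FPKM to 198 and 223 FPKM, and Cct5, the most abundant, from 204 and 224 FPKM to 297 and 304 FPKM. Cct8 changed least, from 126 and 136 FPKM to 159 and 174 FPKM (log2 change 0.34 ± 0.08, adjusted p = 0.0307). Among the 7, the highest level over the lowest was 2.67 and 3.12 in controls and 2.16 and 1.92 in treated libraries. These 7 were thus closer to each other after treatment. Tcp1 did not pass without control replicate 1 or treated replicate 2, where its log2 changes were 0.4999 and 0.499. Cct5 did not pass without treated replicate 1 or 2, where its log2 changes were 0.502 and 0.471. Cct8 did not pass without any one library (0.0675 to 0.123). Cct6a, the remaining subunit and no member of the list, went from 11.4 and 17.6 FPKM to 25.4 and 33.8 FPKM (2.04-fold, adjusted p = 0.0488) and was named after its values were seen. Its level was below that of every listed subunit in each library, and the spread given above leaves it out.

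**Figure D3:**
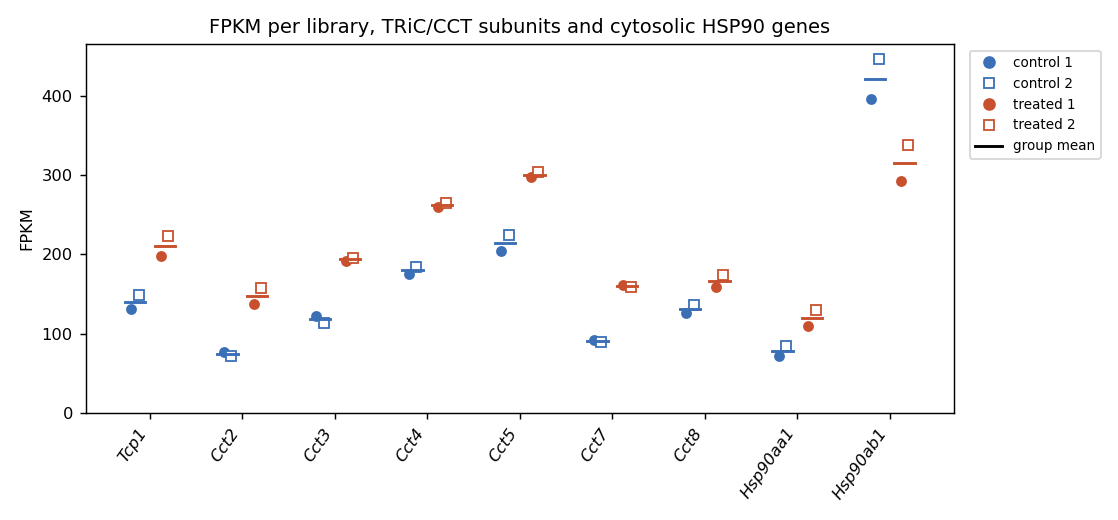
FPKM from 0 (vertical axis) in each library for 7 TRiC/CCT subunits and both cytosolic HSP90 genes, with replicate 1 as filled circles, replicate 2 as open squares and lines for group means. Treated values (orange) lie above the controls (blue) for each subunit and for Hsp90aa1, and below them for Hsp90ab1.

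Small heat shock proteins were split further apart than any other class, with a range of log2 changes from -1.64 to 3.45. Hspb8, which works with BAG3 to send aggregates to autophagy, was at 9.98 and 9.56 FPKM in controls against 111 and 122 FPKM in treated cells. Its treated values were 11.9-fold higher (log2 change 3.45 ± 0.08, adjusted p = 0.000703), and 99.6% of tested genes had a log2 change no higher. The deposited coordinates place Hspb8 on chromosome 12 from 45905371 to 45920013 with 3 exons. Hspb1, the general small heat shock protein that binds actin, went from 54.1 and 66.0 FPKM to 38.3 and 35.3 FPKM (log2 change -0.68 ± 0.12, adjusted p = 0.0184), but did not pass without treated replicate 1 (0.0710) or 2 (0.0961). Hspb8 over Hspb1 was 0.185 and 0.145 in controls and 2.90 and 3.46 in treated libraries (two-sided exact permutation p = 0.333). Cryab, alpha B-crystallin of lens and muscle, went from 24.8 and 31.3 FPKM to 8.14 and 8.32 FPKM (log2 change -1.64 ± 0.14, adjusted p = 0.00354).

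The other muscle-type small heat shock proteins were low. Hspb6 was at 1.18 and 1.68 FPKM in controls against 0.664 and 0.763 FPKM in treated cells and did not pass (adjusted p = 0.107). Hspb7, named after its values were seen, was at 1.28 and 2.11 FPKM in controls against 0.185 and 0.147 FPKM in treated cells, below the level for testing. In the same libraries the 9 smooth muscle markers fell from a sum of 7904 and 7983 FPKM to 663 and 652 FPKM, none of them at 0, and their part in the values of Cryab, Hspb6 and Hspb7 was not tested. Hspb8, also known from muscle, went the other way.

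Mitochondrial chaperones rose together. Hspa9, the HSP70 of the matrix that pulls in and folds imported proteins, was the most abundant member in treated cells and went from 196 and 203 FPKM to 472 and 501 FPKM (log2 change 1.28 ± 0.06, adjusted p = 0.00122). Hspd1, the HSP60 chaperonin, went from 99.7 and 106 FPKM to 200.3 and 225 FPKM (log2 change 1.04 ± 0.08, adjusted p = 0.00299). Trap1, the mitochondrial HSP90, went from 34.7 and 30.03 FPKM to 42.3 and 43.4 FPKM (log2 change 0.40 ± 0.10, adjusted p = 0.0369). Hspa9 and Hspd1 passed whichever library was left out, while Trap1 passed only without control replicate 1 (adjusted p = 0.0863, 0.124 and 0.145 without control replicate 2, treated replicate 1 and treated replicate 2). With Dnaja3, described above, 4 of 4 tested members that work in mitochondria rose, against 24.7% higher over all genes.

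Other genes of the folding network, a list of 48 that are no members, gave the wider context. Of 42 tested, 16 rose and 4 fell (38.1% and 9.52%, against 24.7% and 23.1% over all genes), with a median log2 change of 0.38. By log2 change, Grpel1 was the highest gene of the list. This exchange factor of mitochondrial HSP70 went from 51.0 and 44.6 FPKM to 167 and 157 FPKM (3.39-fold, adjusted p = 0.00158), and Grpel2, a second one, rose 2.45-fold from 8.30 and 8.21 FPKM. Lonp1, the main protease of the matrix, went from 85.1 and 84.0 FPKM to 190.2 and 173 FPKM (2.15-fold). Clpb, a disaggregase, rose 2.19-fold and Clpx, the unfoldase of another matrix protease, 1.64-fold. The mitochondrial J proteins Dnajc15 and Dnajc11 rose 2.13- and 1.57-fold.

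Grouped by known location after the values were seen, 8 of 9 tested mitochondrial genes of that list rose. Hscb, a J protein of iron-sulfur cluster assembly, fell from 12.1 and 12.04 FPKM to 7.27 and 5.39 FPKM (adjusted p = 0.0219). In the cytosol, Ptges3 (p23, which holds HSP90 closed) had the smallest p of the list and went from 58.8 and 58.2 FPKM to 141 and 132 FPKM (2.34-fold, adjusted p = 0.00142). The HSP90 partners Sugt1, Cdc37 and Ppp5c rose 1.91-, 1.67- and 2.36-fold, and Dnajc2, a J protein of the ribosome, 1.73-fold. The remaining 3 that fell, named after their values were seen, were Hsbp1, a binding protein of heat shock factor 1, by 0.55, the prefoldin subunit Pfdn5 by 0.36 and Hspa12b, an endothelial HSP70 relative, by 1.29 on the log2 scale. Beside the last, the 5 endothelial markers with values went from a sum of 8.28 and 7.78 FPKM to 0.641 and 0.451 FPKM, and their part in the fall of Hspa12b was not tested. Without control replicate 2 the test called 13 genes of this list higher and 0 lower.

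**Figure D4:**
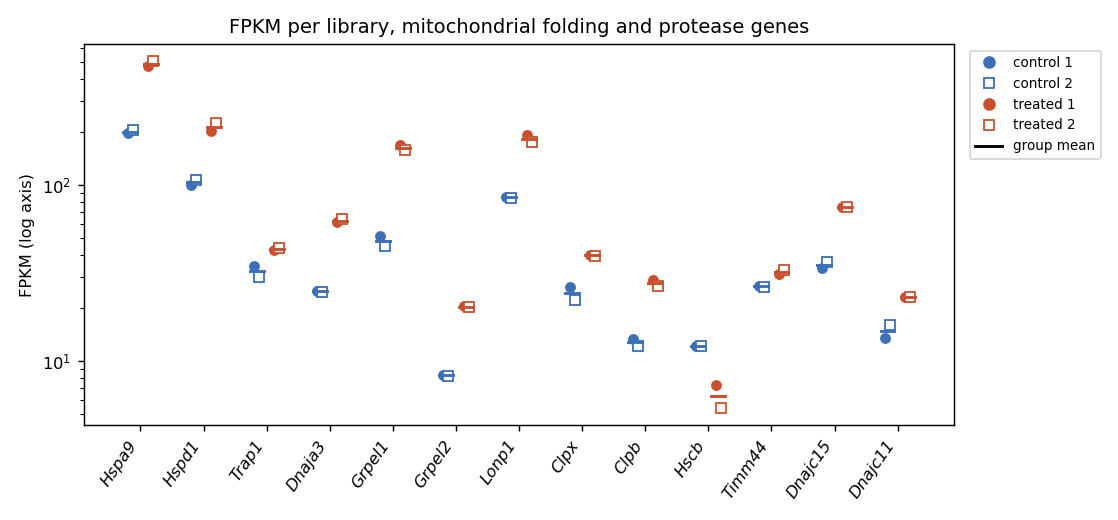
FPKM on a log axis in each library for 13 tested genes of mitochondrial folding and protein quality control, members of the chaperone list first, with replicate 1 as filled circles, replicate 2 as open squares and lines for group means. Treated values (orange) lie above controls (blue) for every gene except Hscb.

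Summed by class, levels are given on the relative FPKM scale. The listed TRiC/CCT subunits summed to 928 and 967 FPKM in controls and to 1404 and 1477 FPKM in treated cells, and the mitochondrial chaperones to 331 and 339 FPKM against 715 and 769 FPKM. HSP110 genes summed to 65.0 and 64.5 FPKM in controls and to 257 and 279 FPKM in treated cells. J proteins (208 and 222 against 280 and 284 FPKM) and cochaperones (233 and 244 against 305 and 317 FPKM) were also higher. So were small heat shock proteins (91.3 and 111 against 158 and 167 FPKM) and heat shock factors (7.19 and 9.90 against 16.5 and 15.7 FPKM). The HSP90 sums, given above, overlapped with a lower treated mean. The sums of the HSP70 genes (74.0 and 82.3 against 79.4 and 80.6 FPKM) and of the BAG genes (89.4 and 104 against 95.6 and 100.7 FPKM) overlapped between the groups. These sums leave out Hspa8 and Hspe1 and are given without a test.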

How the data were processed

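The authors deposited FPKM per transcript for mRNAs and lncRNAs, and for circRNAs read counts and a scaled signal (spliced reads relative to mapped reads). HISAT2 and DESeq2 appear in the submitters' processing notes, FastQC and edgeR in the study's methods. Versions, genome build and assembler: not given in the sources used here. Columns of the authors' own fold changes, p-values and q-values were not used. Table columns named NP were matched to the treated titles.

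Of 17290 mRNA rows, 1545 repeated an earlier transcript and were dropped, and FPKM was summed per gene name. No lncRNA was assigned to a member, and circRNA counts over their signal served only to obtain mapped reads. Whole reads could not be recovered from FPKM and length, so no count test was run. The test was limma 3.58.1 (R 4.3.3) on log2(FPKM + 1) for genes averaging at least 1 FPKM (mean-variance trend, group as the sole term, two-sided, Benjamini-Hochberg over 8012 genes at 0.05), a scale that understates changes of low genes. Values of all libraries are printed for members past the threshold or with a mean of at least 50 FPKM, the others being given as ranges or where singled out, and for other folding genes up to 12 by smallest p. Alternatives were the pseudocount, filter, scaling, trend, repeated rows, transcripts, threshold, replicate block and leaving out each library. The members and lists were chosen with earlier results of these data known. Python 3.11.15, pandas 2.3.3, numpy 2.4.6 and matplotlib 3.10.9 were used.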

Additional observations from a re-analysis of the deposited data

How the results depend on the processing

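Of the 30 called members, 11 passed in every alternative, namely Cryab, Dnaja3, Dnajb2, Hsf1, Hspa2, Hspa4, Hspa4l, Hspa9, Hspb8, Hspd1 and Hsph1, and 17 passed whichever library was left out. Leaving out 1 library gave 17 to 22 called members (15 to 18 higher, 2 to 4 lower), 2422 to 2745 genes in all (1128 to 1527 higher, 1218 to 1334 lower) and 11 to 13 other folding genes (9 to 13 higher, 0 to 2 lower by limma, with 2 lower at an unadjusted p under 0.05 where the count was 0). Fewer samples were fitted there, and the lone library of a group was assumed to vary like the other group. At the study's cutoff (unadjusted p below 0.05, log2 change larger than 1), 11 members passed (9 higher, 2 lower), with 2132 genes in all (914 higher, 1218 lower) and 8 other folding genes (7 higher, 1 lower). With a mean of at least 5 FPKM, 1704 genes were higher and 1158 lower, the latter count being smaller since fewer were tested. Without a filter 2 other folding genes were lower, and the cause was not tested. Equal totals turned no direction among the tested members, but Trap1 was lost and Dnaja1 gained. Hsf2 ranged from -0.016 without control replicate 1, a change of sign, to 0.504 without control replicate 2. With the replicate number as a block, 27 members were called, losing Fkbp4, Hspb1 and Trap1, and 2 other folding genes were lower. Whether same-numbered libraries were paired is not stated. They deviated with a correlation of -0.0077 over 8012 genes, and a value over all genes cannot decide this.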

Other observations

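Of the 7 members listed with 2 transcripts, Dnajb2 is described above, and the Dnajb4 transcript ENSRNOT00000017381 held 100% and 0% of the gene's FPKM in the controls, so replicates of 1 group were assigned to different transcripts. The more abundant Hsp90ab1 transcript ENSRNOT00000026920 held 75.8% and 78.7% of the gene's FPKM in controls and 74.8% and 73.9% in treated cells, and the Tcp1 transcript ENSRNOT00000019531 held 81.5% and 83.9% against 78.7% and 84.3%. For Dnaja3, ENSRNOT00000081596 held 85.1% and 79.3% against 83.2% and 86.7%. Both Dnaja3 transcripts and both Tcp1 transcripts were higher when transcripts were tested in place of genes, and so was the main Dnajb2 transcript (log2 change 1.597 ± 0.11, limma, adjusted p = 0.00329).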
